A study of Mus musculus with 16 samples.

Results

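The genes described here act in the G2 phase and in mitosis, the stretch of the cell cycle in which a cell that has copied its DNA builds a spindle, separates its chromosomes and divides. The list named 50 genes with these roles, and it was chosen with earlier results of these data known. Counts of its genes set against all rows therefore describe the list and are no independent test of it. Of the 50, 49 were measured on a row of the table whose annotation gives 1 gene symbol, and where a gene had several such rows the row with the highest mean over the 16 arrays was used. The gene for cyclin B1, Ccnb1, had no such row and was not analysed here. The 49 measured genes stand among 19937 gene symbols on rows with 1 symbol.

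The study measured messenger RNA in bone marrow cells of C57BL/6J mice on 16 arrays, 2 for each of 8 groups, and its question, by its title, was how Parp-2-/- and wild-type (WT) blood-forming cells differ at rest and after gamma radiation. The groups were irradiated Parp-2-/- LSK, unirradiated Parp-2-/- LSK, irradiated WT LSK, unirradiated WT LSK, irradiated Parp-2-/- MP, unirradiated Parp-2-/- MP, irradiated WT MP and unirradiated WT MP cells. LSK cells (Lin-, Sca1+, c-Kit+) hold the blood stem cells and earliest progenitors, and MP cells (Lin-, Sca1-, c-Kit+) are myeloid progenitors. Irradiated samples were taken 2.5 hours after 5 Gy. Each array was hybridised with RNA from a pool of cells of at least 3 mice, the labels used here give neither age nor sex, and they do not say whether LSK and MP pools came from the same mice. Parp-2 is an enzyme that marks proteins with ADP-ribose at DNA breaks, and the Parp-2-/- mice lack it.

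Entry into mitosis is driven by cyclin B with the kinase Cdk1, which the Cdc25 phosphatases switch on and which starts spindle assembly, while the spindle checkpoint holds the sister chromatids together until every kinetochore is attached. The messenger RNAs of most of these genes climb in G2 and peak in mitosis, because their promoters are repressed in resting cells by the DREAM complex and activated in G2 by B-Myb and FoxM1. Many kinds of cells with damaged DNA halt in G2 and do not enter mitosis, and in blood-forming tissue the share of cells in cycle is far greater among progenitors than among stem cells.

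The promoters of the 5 genes with the largest measured mean fall after irradiation among those in the RefSeq promoter table are shown because they carry the 2 elements this class of genes is known for. These are the cell cycle genes homology region, searched here as TTTGAA or TTCGAA, and the box bound by the factor NF-Y, searched as CCAAT, each on both strands. The windows run from 250 bases before to 50 bases after the annotated transcription start in RefSeq's GRCm38.p6, written 5′ to 3′ on the gene's strand, and capitals mark the matches. A match on the opposite strand is shown as it reads on the gene's strand. The windows lie at chr1:139454523-139454822 (plus strand) for Aspm, chr7:80294201-80294500 (plus strand) for Prc1, chr1:189688037-189688336 (minus strand) for Cenpf, chr11:106999476-106999775 (minus strand) for Kpna2 and chr2:172370521-172370820 (minus strand) for Aurka. A second Prc1 window in the table overlaps the one shown.
Aspm: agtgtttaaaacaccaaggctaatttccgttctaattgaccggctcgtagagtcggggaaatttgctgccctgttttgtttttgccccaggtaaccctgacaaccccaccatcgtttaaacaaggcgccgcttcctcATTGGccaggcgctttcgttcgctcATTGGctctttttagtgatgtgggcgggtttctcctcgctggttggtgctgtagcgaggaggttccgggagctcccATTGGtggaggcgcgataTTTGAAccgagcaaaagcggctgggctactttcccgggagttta
Prc1: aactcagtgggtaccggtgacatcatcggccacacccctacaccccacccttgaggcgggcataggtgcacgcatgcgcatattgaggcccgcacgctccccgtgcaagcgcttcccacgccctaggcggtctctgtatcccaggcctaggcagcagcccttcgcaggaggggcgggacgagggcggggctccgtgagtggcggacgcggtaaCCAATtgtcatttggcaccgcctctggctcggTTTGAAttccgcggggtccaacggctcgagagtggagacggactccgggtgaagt
Cenpf: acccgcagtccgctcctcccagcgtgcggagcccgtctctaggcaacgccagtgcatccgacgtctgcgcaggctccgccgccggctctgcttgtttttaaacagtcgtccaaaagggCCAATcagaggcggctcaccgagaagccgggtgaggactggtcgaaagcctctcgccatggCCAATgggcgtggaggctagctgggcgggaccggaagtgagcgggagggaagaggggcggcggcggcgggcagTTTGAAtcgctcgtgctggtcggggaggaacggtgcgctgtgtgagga
Kpna2: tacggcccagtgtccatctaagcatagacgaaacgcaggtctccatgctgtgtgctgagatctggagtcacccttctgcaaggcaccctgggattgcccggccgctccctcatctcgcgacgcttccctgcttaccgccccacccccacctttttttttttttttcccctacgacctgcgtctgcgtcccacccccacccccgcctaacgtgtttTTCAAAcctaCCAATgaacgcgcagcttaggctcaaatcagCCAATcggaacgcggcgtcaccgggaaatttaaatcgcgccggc
Aurka: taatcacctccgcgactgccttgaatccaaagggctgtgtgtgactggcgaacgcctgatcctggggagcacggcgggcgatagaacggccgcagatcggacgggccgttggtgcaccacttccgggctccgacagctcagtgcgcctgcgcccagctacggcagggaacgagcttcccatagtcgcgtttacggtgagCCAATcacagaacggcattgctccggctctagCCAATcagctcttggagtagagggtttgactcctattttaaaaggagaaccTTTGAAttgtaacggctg

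All 5 promoters held TTTGAA and at least 1 CCAAT, and Aspm held 3 CCAAT matches, all on the opposite strand. In Prc1 the TTTGAA ran from 5 bases before the start to the first transcribed base, and in Cenpf it covered the transcribed bases 3 to 8. RefSeq's table held 42 windows for 40 of the 49 genes, with 2 windows each for Ect2 and Prc1. TTTGAA or TTCGAA stood in 35 of the 42 windows (83.3%), against 19.2% of the 32851 promoter windows of the table. CCAAT stood in 33 of the 42 (78.6%), against 37.4% of all windows, and both elements stood in 31 of the 42 (73.8%), against 7.5% of all windows. Among 133 windows of the other pathway genes TTTGAA or TTCGAA stood in 37.6%, CCAAT in 56.4% and both in 25.6%, and among 41 windows of DNA replication genes the shares were 22%, 56.1% and 12.2%. The 33 genes with TTTGAA or TTCGAA had a median mean radiation change of -0.75 on the log2 scale, and the 7 genes without had a median of -0.49. Split by both elements, the medians were -0.75 in 29 genes with and -0.67 in 11 genes without. These counts describe letters in a window and do not show that a factor binds there.

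Levels are given as deposited, as log2 array intensities, on which a difference of 1 is a factor of 2. Array brightness depends on the probes, so levels of different genes are not set against each other. Changes are log2 differences ± standard error from 1 limma model of all 16 arrays, with n = 2 pools in each group. Their p-values measure the spread between pools. The model gives each gene 1 spread shared by LSK and MP groups. Where LSK pools differed more between replicates, standard errors and p-values are too small for LSK changes and too large for MP changes. Each fit was repeated without each array in turn, where a pool left alone in its group is assumed to vary like the others. A difference was called at an adjusted p under 0.05 (Benjamini-Hochberg over 22961 rows). The median standard error over those rows was 0.207 for a difference between 2 groups and 0.103 for a mean of 4 such differences.

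Parp2 itself averaged 6.55 in the 8 Parp-2-/- arrays and 7.98 in the 8 WT arrays, a difference of -1.43 (exact permutation test within cell type and irradiation state, two-sided p = 0.00154, the smallest its 1296 arrangements can give). Its level did not overlap between genotypes in either cell type. Hlf, a stem cell marker, read 8.37 to 9.08 in LSK arrays and 5.71 to 6.57 in MP arrays. On each array 7 or 8 of 9 T and NK cell markers and 3 or 4 of 7 B cell markers lay under the median. Cd3d and Cd79a were among them on all 16 arrays. On each array the markers outside these counts did not lie under the median. Nkg7 of the T and NK list differed by -1.24 between LSK and MP cells, in the mean of 4 differences. Every other marker of that list was higher in LSK cells. Of these Cd2, Cd3e, Cd4, Klrd1 and Ncr1 were called, at 0.234 to 0.445, against 21.4% of tested rows called higher. These lists do not exclude other cells in the pools. Replicate pools correlated at 0.966 to 0.974 over all tested rows in LSK groups and at 0.989 to 0.994 in MP groups, so the LSK pools differed more between replicates.

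Across the 8 groups the mitosis genes stood at 3 broad levels. Each gene was centred on its mean over the 16 arrays, and the median of the 49 centred values was taken on each array. It was lowest in irradiated LSK cells, at -0.78 and -0.55 in the Parp-2-/- pools and at -0.64 and -0.52 in the WT pools. Unirradiated LSK cells had 0.17 and 0.22 in Parp-2-/- pools and 0.01 and -0.06 in WT pools. Irradiated MP cells had 0.02 and 0.11 in Parp-2-/- pools and -0.06 and -0.12 in WT pools, and so overlapped unirradiated LSK cells. Unirradiated MP cells stood highest, with 0.60 and 0.66 in Parp-2-/- pools and 0.54 and 0.45 in WT pools. The same median over all tested rows stayed between -0.07 and 0.06 on every array. Of the 49 genes, 37 had their highest group mean in unirradiated Parp-2-/- MP cells, and 46 had their lowest in irradiated LSK cells, 27 of them in the Parp-2-/- and 19 in the WT group.

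**Figure D1:**
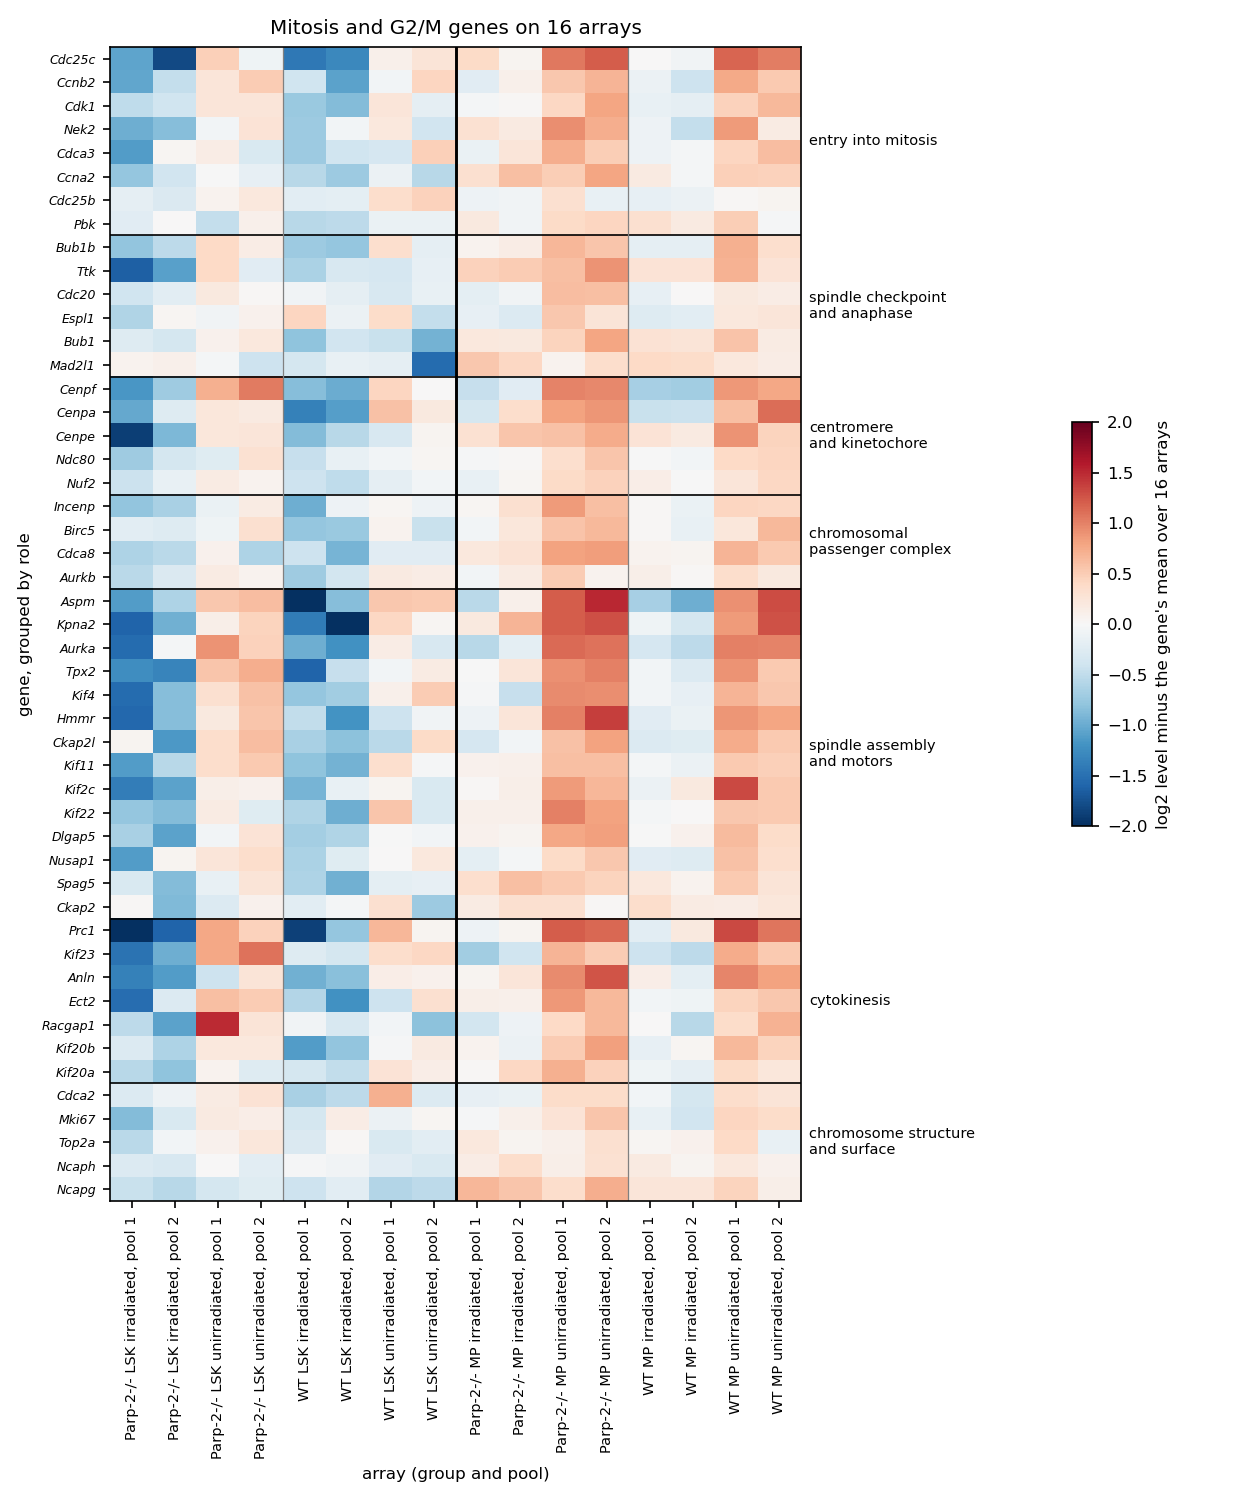
Heat map of the 49 mitosis genes (rows, grouped by role) on the 16 arrays (columns, LSK left of the thick line and MP right of it). Colour gives the log2 level minus the gene's mean over the 16 arrays. The irradiated LSK columns are mostly blue, with array medians of -0.78 to -0.52, and the unirradiated MP columns mostly red, with medians of 0.45 to 0.66.

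Radiation lowered the messenger RNA of most of the module within 2.5 hours. In the mean of the 4 responses, 38 of the 49 genes were lower after irradiation, 0 were higher and 11 were not called, against 2.49% of all tested rows called lower and 3.31% called higher. The median change of the 49 was -0.68, against -0.02 over all tested rows. Of the 49, 39 were below 0 in each of the 4 responses, against 14% of tested rows. In 28 genes both irradiated pools lay below both unirradiated pools in every one of the 4, against 1.33% of tested rows. In these samples of whole populations, fewer cells in G2 and mitosis and less RNA per such cell cannot be told apart.

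Counted by response, 16 genes were lower in Parp-2-/- LSK cells (0.74% of tested rows), 11 in WT LSK cells (0.623%), 4 in Parp-2-/- MP cells (0.0827%) and 2 in WT MP cells (0.1%). None was called higher, against 0.727%, 1.18%, 0.505% and 0.571% of tested rows in the same order. Both irradiated pools lay below both unirradiated pools in 43 genes in Parp-2-/- LSK (17.9% of tested rows), 34 in WT LSK (20.5%), 40 in Parp-2-/- MP (22.3%) and 41 in WT MP cells (26%). The medians were closer together than the counts, at -0.79, -0.61, -0.58 and -0.56 in the same order. At an unadjusted p under 0.05, 37, 27, 28 and 28 genes were lower in that order, against 6.55%, 7.43%, 2.69% and 2.57% of tested rows. The counts do not rank the cell types: with the 8 arrays of each cell type fitted alone they were 2 in Parp-2-/- LSK, 0 in WT LSK, 15 in Parp-2-/- MP and 15 in WT MP cells. So none of the WT LSK calls given below stood in that fit, and of the Parp-2-/- LSK calls only those of Cenpf and Kif23 did. Leaving out irradiated WT LSK pool 1 brought the WT LSK count to 3, and either irradiated Parp-2-/- LSK pool 1 or unirradiated Parp-2-/- LSK pool 2 brought the Parp-2-/- LSK count to 10. Leaving out irradiated WT MP pool 2 brought the WT MP count to 0, as did any of the 4 Parp-2-/- MP pools for the Parp-2-/- MP count. The count for the mean of the 4 responses lay between 29 and 39 with any 1 array left out.

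**Figure D2:**
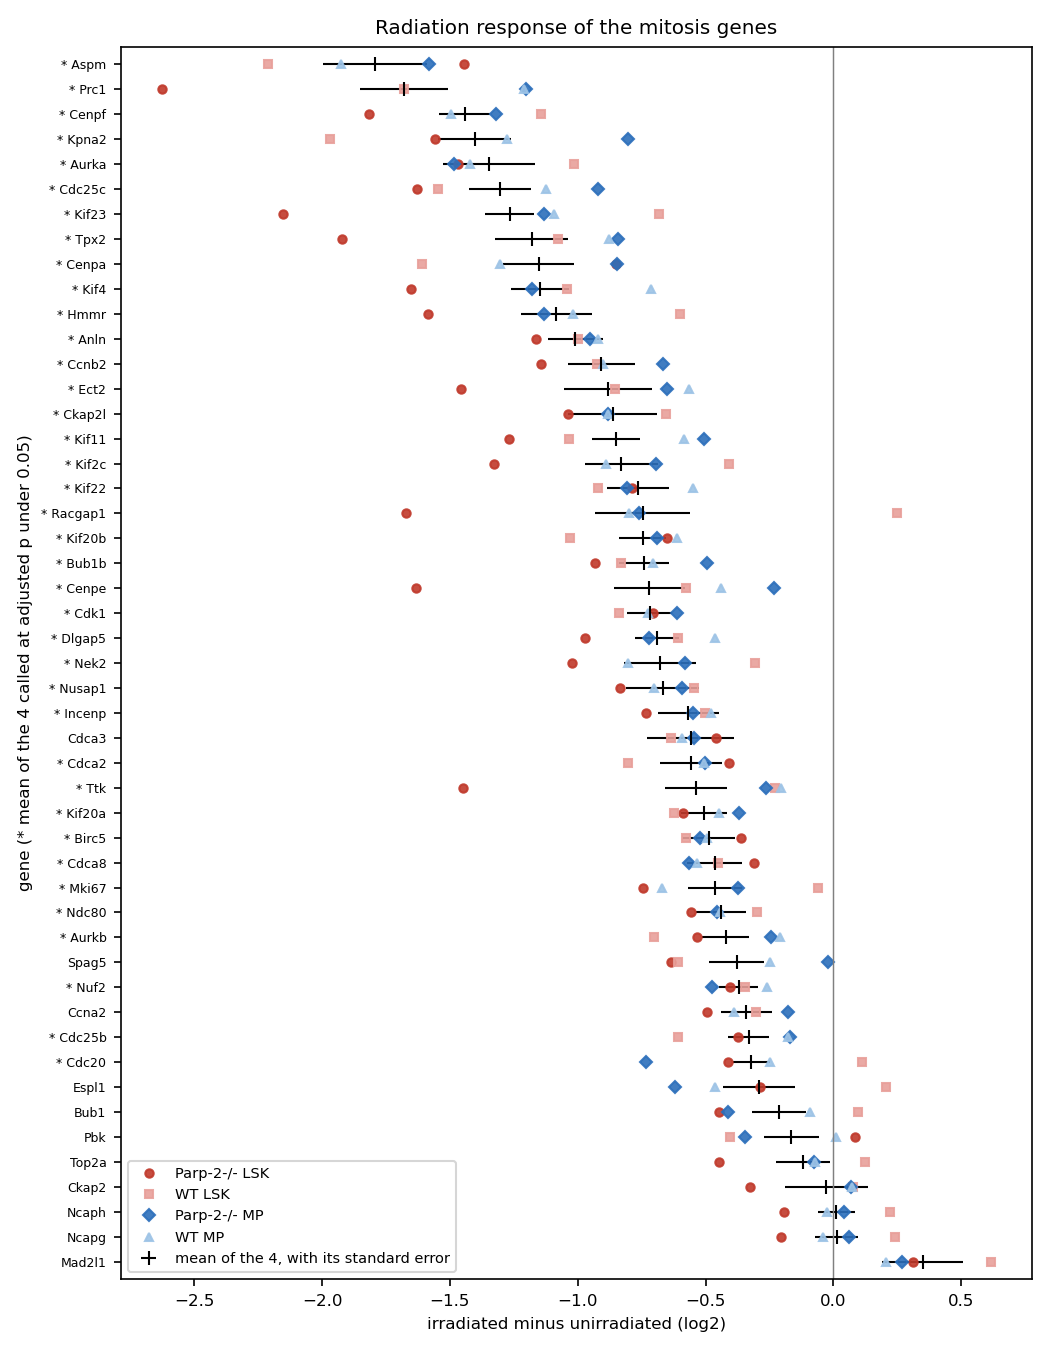
Irradiated minus unirradiated level (log2, horizontal axis) of each of the 49 genes (vertical axis), with 1 symbol for each combination of genotype and cell type and a black bar for the mean of the 4 with its standard error. Most genes lie left of 0 in all 4 responses, from a mean of -1.79 for Aspm to 0.35 for Mad2l1.

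Among the genes for entry into mitosis, 5 of 8 were lower in the mean of the 4 responses. Cdc25c encodes a phosphatase that activates Cdk1. In LSK cells, Cdc25c read 4.50 and 3.75 in irradiated and 6.04 and 5.47 in unirradiated Parp-2-/- pools, and 4.12 and 4.27 in irradiated and 5.66 and 5.82 in unirradiated WT pools. In MP cells, Cdc25c read 5.94 and 5.61 in irradiated and 6.62 and 6.78 in unirradiated Parp-2-/- pools, and 5.56 and 5.48 in irradiated and 6.72 and 6.58 in unirradiated WT pools. No irradiated pool reached an unirradiated pool of the same cells. Both irradiated LSK groups lay under the array median, so the LSK falls may be understated. Cdc25c fell by 1.30 ± 0.12 in the mean of the 4 (adjusted p = 3.12e-05) and was called in both LSK responses, at -1.63 ± 0.24 in Parp-2-/- and -1.54 ± 0.24 in WT cells. Ccnb2 encodes cyclin B2, a partner of Cdk1. In LSK cells, Ccnb2 read 7.95 and 8.51 in irradiated and 9.24 and 9.50 in unirradiated Parp-2-/- pools, and 8.60 and 7.92 in irradiated and 8.94 and 9.43 in unirradiated WT pools. In MP cells, Ccnb2 read 8.77 and 9.10 in irradiated and 9.54 and 9.67 in unirradiated Parp-2-/- pools, and 8.88 and 8.59 in irradiated and 9.75 and 9.52 in unirradiated WT pools. Irradiated and unirradiated pools did not overlap in any of the 4 pairs, and the mean change was -0.91 ± 0.13 (adjusted p = 0.0011).

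Cdk1 encodes the kinase that drives entry itself. In LSK cells, Cdk1 read 7.41 and 7.52 in irradiated and 8.16 and 8.17 in unirradiated Parp-2-/- pools, and 7.17 and 7.06 in irradiated and 8.17 and 7.74 in unirradiated WT pools. In MP cells, Cdk1 read 7.88 and 7.94 in irradiated and 8.33 and 8.71 in unirradiated Parp-2-/- pools, and 7.77 and 7.74 in irradiated and 8.39 and 8.57 in unirradiated WT pools. Every irradiated pool stood below its unirradiated counterparts, with changes of -0.70 in Parp-2-/- LSK, -0.84 in WT LSK, -0.61 in Parp-2-/- MP and -0.72 in WT MP cells. Its mean change was -0.72 ± 0.09 (adjusted p = 0.000276), and the WT LSK response alone was called. The WT LSK call was kept in 9 of the 16 fits that left out 1 array. Nek2, a centrosome kinase gene, changed by -0.68 ± 0.14 in the mean of the 4 and Cdc25b, another phosphatase gene, by -0.33 ± 0.08, both called lower. With 1 array left out the Cdc25b mean call held in 6 of 16 fits. The 3 further genes of this role were not called, with means of -0.56 ± 0.17 for Cdca3, -0.34 ± 0.10 for the cyclin A2 gene Ccna2 and -0.16 ± 0.11 for the kinase gene Pbk (adjusted p from 0.0694 to 0.499).

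The spindle checkpoint and anaphase genes were mixed, with 3 of 6 lower. Bub1b encodes BubR1, which inhibits the anaphase-promoting complex until all chromosomes are attached. In LSK cells, Bub1b read 6.65 and 6.92 in irradiated and 7.84 and 7.59 in unirradiated Parp-2-/- pools, and 6.71 and 6.67 in irradiated and 7.78 and 7.26 in unirradiated WT pools. In MP cells, Bub1b read 7.51 and 7.59 in irradiated and 8.10 and 7.99 in unirradiated Parp-2-/- pools, and 7.26 and 7.26 in irradiated and 8.15 and 7.78 in unirradiated WT pools. The irradiated pools were the lower ones in all 4 pairs, and the mean change was -0.74 ± 0.10 (adjusted p = 0.000504). Ttk encodes the checkpoint kinase Mps1. In LSK cells, Ttk read 5.45 and 5.99 in irradiated and 7.48 and 6.86 in unirradiated Parp-2-/- pools, and 6.44 and 6.76 in irradiated and 6.75 and 6.91 in unirradiated WT pools. In MP cells, Ttk read 7.54 and 7.59 in irradiated and 7.68 and 7.97 in unirradiated Parp-2-/- pools, and 7.36 and 7.36 in irradiated and 7.78 and 7.35 in unirradiated WT pools. The fall was large in Parp-2-/- LSK cells, at -1.45 ± 0.24 (adjusted p = 0.0109), whereas the pools overlapped in WT LSK and WT MP cells and the other 3 changes lay between -0.21 and -0.26. Leaving out irradiated Parp-2-/- LSK pool 1 or unirradiated Parp-2-/- LSK pool 1 lost the Parp-2-/- LSK call. The mean call was kept in 11 of the 16 fits that left out 1 array.

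Cdc20 encodes the activator of the anaphase-promoting complex. In LSK cells, Cdc20 read 6.88 and 7.06 in irradiated and 7.48 and 7.29 in unirradiated Parp-2-/- pools, and 7.20 and 7.10 in irradiated and 6.95 and 7.12 in unirradiated WT pools. In MP cells, Cdc20 read 7.09 and 7.21 in irradiated and 7.89 and 7.87 in unirradiated Parp-2-/- pools, and 7.10 and 7.28 in irradiated and 7.46 and 7.42 in unirradiated WT pools. It was called lower in Parp-2-/- MP cells (-0.73 ± 0.14, adjusted p = 0.044), and its pools overlapped in WT LSK cells. With 1 array left out the Parp-2-/- MP call held in 6 of 16 fits. Leaving out irradiated Parp-2-/- MP pool 1, unirradiated Parp-2-/- MP pool 1 or irradiated WT MP pool 1 lost the mean call. Mad2l1 encodes Mad2, the checkpoint protein that holds Cdc20. In LSK cells, Mad2l1 read 9.26 and 9.29 in irradiated and 9.15 and 8.78 in unirradiated Parp-2-/- pools, and 8.85 and 9.05 in irradiated and 9.01 and 7.65 in unirradiated WT pools. In MP cells, Mad2l1 read 9.73 and 9.61 in irradiated and 9.27 and 9.54 in unirradiated Parp-2-/- pools, and 9.59 and 9.56 in irradiated and 9.40 and 9.34 in unirradiated WT pools. Mad2l1 was the one gene of the 49 above 0 in all 4 responses, and irradiated pools lay above unirradiated pools in 3 of them. In WT LSK cells unirradiated pool 2 stood apart from pool 1, and the mean change of 0.35 ± 0.16 was not called (adjusted p = 0.28). The separase gene Espl1 (-0.29 ± 0.14) and the checkpoint kinase gene Bub1 (-0.21 ± 0.11) were not called either. The checkpoint count rests on few genes: without irradiated Parp-2-/- MP pool 1 or irradiated WT MP pool 1 it was 1 of 6.

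All 5 centromere and kinetochore genes were lower in the mean of the 4. Cenpf encodes a large protein of the outer kinetochore and was the one gene called in each of the 4 responses. In LSK cells, Cenpf read 6.08 and 6.54 in irradiated and 7.96 and 8.29 in unirradiated Parp-2-/- pools, and 6.40 and 6.25 in irradiated and 7.68 and 7.26 in unirradiated WT pools. In MP cells, Cenpf read 6.79 and 7.03 in irradiated and 8.24 and 8.22 in unirradiated Parp-2-/- pools, and 6.59 and 6.55 in irradiated and 8.12 and 8.02 in unirradiated WT pools. The irradiated pools stayed clear of the unirradiated pools in all 4 pairs. Its change was -1.81 ± 0.20 in Parp-2-/- LSK cells, -1.14 ± 0.20 in WT LSK cells, -1.32 ± 0.20 in Parp-2-/- MP cells and -1.50 ± 0.20 in WT MP cells (adjusted p from 0.000654 to 0.0124). The Parp-2-/- MP call was lost without irradiated Parp-2-/- MP pool 1, irradiated Parp-2-/- MP pool 2, unirradiated Parp-2-/- MP pool 1 or unirradiated Parp-2-/- MP pool 2. Without unirradiated WT LSK pool 1, the WT LSK call was lost. Leaving out irradiated WT MP pool 2 lost the WT MP call.

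Cenpa encodes the histone H3 variant that marks the centromere. In LSK cells, Cenpa read 5.88 and 6.64 in irradiated and 7.13 and 7.09 in unirradiated Parp-2-/- pools, and 5.55 and 5.80 in irradiated and 7.49 and 7.09 in unirradiated WT pools. In MP cells, Cenpa read 6.54 and 7.25 in irradiated and 7.71 and 7.78 in unirradiated Parp-2-/- pools, and 6.45 and 6.47 in irradiated and 7.50 and 8.02 in unirradiated WT pools. The pools were separate in every pair, and the change of -1.61 ± 0.28 in WT LSK cells was called (adjusted p = 0.0131). The WT LSK call was lost without irradiated WT LSK pool 1 or unirradiated WT LSK pool 1. Cenpe encodes a kinesin that carries chromosomes to the spindle equator. In LSK cells, Cenpe read 6.09 and 7.09 in irradiated and 8.21 and 8.23 in unirradiated Parp-2-/- pools, and 7.12 and 7.43 in irradiated and 7.66 and 8.04 in unirradiated WT pools. In MP cells, Cenpe read 8.28 and 8.55 in irradiated and 8.57 and 8.72 in unirradiated Parp-2-/- pools, and 8.27 and 8.17 in irradiated and 8.88 and 8.44 in unirradiated WT pools. The lowest array was irradiated Parp-2-/- LSK pool 1, and the Parp-2-/- LSK change of -1.63 ± 0.28 (adjusted p = 0.0116) was the largest of the 4, the others lying between -0.23 and -0.58. Without unirradiated Parp-2-/- LSK pool 1, the Parp-2-/- LSK call was lost. Ndc80 and Nuf2, which encode subunits of the microtubule-binding Ndc80 complex, changed by -0.44 ± 0.10 and -0.37 ± 0.08 in the mean and were separate in every pair. Leaving out irradiated Parp-2-/- MP pool 1, unirradiated Parp-2-/- MP pool 2 or irradiated WT MP pool 2 lost the Ndc80 mean call.

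The chromosomal passenger complex corrects wrong attachments of chromosomes to the spindle, and all 4 of its genes were lower. Incenp encodes its scaffold. In LSK cells, Incenp read 6.50 and 6.65 in irradiated and 7.16 and 7.46 in unirradiated Parp-2-/- pools, and 6.33 and 7.19 in irradiated and 7.33 and 7.19 in unirradiated WT pools. In MP cells, Incenp read 7.34 and 7.61 in irradiated and 8.15 and 7.91 in unirradiated Parp-2-/- pools, and 7.32 and 7.17 in irradiated and 7.73 and 7.72 in unirradiated WT pools. Pools overlapped in WT LSK cells and not in the other 3 pairs, with a mean change of -0.57 ± 0.12 (adjusted p = 0.0135). Birc5 encodes survivin. In LSK cells, Birc5 read 8.35 and 8.30 in irradiated and 8.48 and 8.89 in unirradiated Parp-2-/- pools, and 7.79 and 7.82 in irradiated and 8.64 and 8.12 in unirradiated WT pools. In MP cells, Birc5 read 8.52 and 8.78 in irradiated and 9.13 and 9.21 in unirradiated Parp-2-/- pools, and 8.58 and 8.42 in irradiated and 8.79 and 9.20 in unirradiated WT pools. The irradiated pools were lower in all 4 pairs by similar amounts, from -0.36 in Parp-2-/- LSK to -0.57 in WT LSK cells.

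Cdca8 encodes borealin. In LSK cells, Cdca8 read 6.94 and 7.01 in irradiated and 7.64 and 6.94 in unirradiated Parp-2-/- pools, and 7.13 and 6.62 in irradiated and 7.32 and 7.33 in unirradiated WT pools. In MP cells, Cdca8 read 7.77 and 7.84 in irradiated and 8.36 and 8.39 in unirradiated Parp-2-/- pools, and 7.63 and 7.61 in irradiated and 8.24 and 8.07 in unirradiated WT pools. Unirradiated Parp-2-/- LSK pool 2 was as low as the irradiated pools, the other 3 pairs did not overlap, and the mean change was -0.47 ± 0.11 (adjusted p = 0.0244). The mean call was kept in 9 of the 16 fits that left out 1 array. The kinase gene Aurkb changed by -0.42 ± 0.09 in the mean. Without irradiated WT MP pool 2, 1 of the 4 genes of this complex was called lower.

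Of the spindle assembly and motor genes 12 of 14 were lower. Aspm encodes a protein of the spindle poles. In LSK cells, Aspm read 4.95 and 5.46 in irradiated and 6.62 and 6.69 in unirradiated Parp-2-/- pools, and 3.57 and 5.23 in irradiated and 6.62 and 6.60 in unirradiated WT pools. In MP cells, Aspm read 5.54 and 6.18 in irradiated and 7.29 and 7.59 in unirradiated Parp-2-/- pools, and 5.42 and 5.10 in irradiated and 6.99 and 7.39 in unirradiated WT pools. Irradiated WT LSK pool 1 stood far below pool 2 and under its array's median, and no irradiated pool overlapped an unirradiated one. Its mean change of -1.79 ± 0.20 (adjusted p = 0.000185) was the largest measured in the module, and the WT LSK response was called. Without irradiated WT LSK pool 1, unirradiated WT LSK pool 1 or unirradiated WT LSK pool 2, the WT LSK call was lost. Kpna2 encodes an importin that releases spindle factors near chromosomes. In LSK cells, Kpna2 read 6.55 and 7.19 in irradiated and 8.27 and 8.60 in unirradiated Parp-2-/- pools, and 6.76 and 6.05 in irradiated and 8.57 and 8.19 in unirradiated WT pools. In MP cells, Kpna2 read 8.36 and 8.84 in irradiated and 9.36 and 9.44 in unirradiated Parp-2-/- pools, and 8.07 and 7.80 in irradiated and 9.01 and 9.42 in unirradiated WT pools. The pools were separate in every pair, with called changes of -1.56 ± 0.28 in Parp-2-/- LSK and -1.97 ± 0.28 in WT LSK cells. Leaving out irradiated Parp-2-/- LSK pool 1 or unirradiated Parp-2-/- LSK pool 2 lost the Parp-2-/- LSK call. Kpna2 had 2 further rows, whose changes were -2.60 and -2.34 in Parp-2-/- LSK and -1.03 and -1.31 in WT LSK cells, so the rows disagree on which genotype fell more.

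Aurka encodes the Aurora A kinase of the spindle poles. In LSK cells, Aurka read 5.73 and 7.22 in irradiated and 8.17 and 7.72 in unirradiated Parp-2-/- pools, and 6.29 and 6.05 in irradiated and 7.42 and 6.95 in unirradiated WT pools. In MP cells, Aurka read 6.71 and 7.08 in irradiated and 8.39 and 8.36 in unirradiated Parp-2-/- pools, and 6.94 and 6.75 in irradiated and 8.27 and 8.26 in unirradiated WT pools. Irradiated Parp-2-/- LSK pool 2 lay well above pool 1, the pools did not overlap in any pair, and the mean change was -1.35 ± 0.18 (adjusted p = 0.000639). Tpx2 encodes the protein that activates Aurora A on the spindle. In LSK cells, Tpx2 read 5.89 and 5.80 in irradiated and 7.68 and 7.85 in unirradiated Parp-2-/- pools, and 5.53 and 6.67 in irradiated and 7.07 and 7.28 in unirradiated WT pools. In MP cells, Tpx2 read 7.12 and 7.37 in irradiated and 8.03 and 8.13 in unirradiated Parp-2-/- pools, and 7.07 and 6.86 in irradiated and 8.03 and 7.65 in unirradiated WT pools. Irradiated pools were lower throughout, most in Parp-2-/- LSK cells at -1.92 ± 0.28 (adjusted p = 0.00496).

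Kif4 encodes the chromokinesin that shapes the anaphase midzone. In LSK cells, Kif4 read 5.83 and 6.51 in irradiated and 7.68 and 7.95 in unirradiated Parp-2-/- pools, and 6.59 and 6.66 in irradiated and 7.47 and 7.87 in unirradiated WT pools. In MP cells, Kif4 read 7.34 and 6.90 in irradiated and 8.31 and 8.29 in unirradiated Parp-2-/- pools, and 7.30 and 7.20 in irradiated and 8.04 and 7.90 in unirradiated WT pools. It was called in 3 of the 4 responses, with WT MP cells (-0.71 ± 0.23) as the exception. The WT LSK call was kept in 7 of the 16 fits that left out 1 array. With 1 array left out the Parp-2-/- MP call held in 6 of 16 fits. Hmmr encodes a spindle protein that also binds hyaluronan. In LSK cells, Hmmr read 5.22 and 5.94 in irradiated and 6.99 and 7.35 in unirradiated Parp-2-/- pools, and 6.30 and 5.60 in irradiated and 6.39 and 6.72 in unirradiated WT pools. In MP cells, Hmmr read 6.69 and 7.04 in irradiated and 7.81 and 8.18 in unirradiated Parp-2-/- pools, and 6.57 and 6.66 in irradiated and 7.67 and 7.59 in unirradiated WT pools. The pools were separate in all 4 pairs and the Parp-2-/- LSK change of -1.58 ± 0.28 was called (adjusted p = 0.0145). Leaving out irradiated Parp-2-/- LSK pool 1 or unirradiated Parp-2-/- LSK pool 2 lost the Parp-2-/- LSK call.

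Kif11 encodes the kinesin Eg5, which pushes the spindle poles apart. In LSK cells, Kif11 read 7.60 and 8.17 in irradiated and 9.06 and 9.24 in unirradiated Parp-2-/- pools, and 7.91 and 7.77 in irradiated and 9.05 and 8.70 in unirradiated WT pools. In MP cells, Kif11 read 8.79 and 8.82 in irradiated and 9.31 and 9.32 in unirradiated Parp-2-/- pools, and 8.68 and 8.60 in irradiated and 9.25 and 9.20 in unirradiated WT pools. No pools overlapped, and both LSK changes were called, at -1.27 ± 0.19 in Parp-2-/- and -1.04 ± 0.19 in WT cells. The WT LSK call was lost without irradiated WT LSK pool 1, irradiated WT LSK pool 2 or unirradiated WT LSK pool 1. Kif2c encodes the microtubule-shortening kinesin MCAK. In LSK cells, Kif2c read 4.35 and 4.67 in irradiated and 5.85 and 5.83 in unirradiated Parp-2-/- pools, and 4.81 and 5.59 in irradiated and 5.79 and 5.43 in unirradiated WT pools. In MP cells, Kif2c read 5.75 and 5.85 in irradiated and 6.59 and 6.39 in unirradiated Parp-2-/- pools, and 5.62 and 5.93 in irradiated and 7.06 and 6.27 in unirradiated WT pools. Irradiated Parp-2-/- LSK cells lay under the array median in both pools, so their change of -1.33 ± 0.28 may be understated. The WT LSK pools overlapped. With 1 array left out the Parp-2-/- LSK call held in 6 of 16 fits.

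Dlgap5 encodes a factor that stabilises spindle microtubules at the kinetochore. In LSK cells, Dlgap5 read 6.36 and 5.93 in irradiated and 6.95 and 7.28 in unirradiated Parp-2-/- pools, and 6.33 and 6.40 in irradiated and 6.99 and 6.95 in unirradiated WT pools. In MP cells, Dlgap5 read 7.08 and 7.06 in irradiated and 7.77 and 7.82 in unirradiated Parp-2-/- pools, and 6.99 and 7.09 in irradiated and 7.64 and 7.37 in unirradiated WT pools. The irradiated pools were the lower ones in each pair, with a mean change of -0.69 ± 0.09 (adjusted p = 0.00036). The spindle genes Ckap2l (-0.86 ± 0.17), Kif22 (-0.77 ± 0.12) and Nusap1 (-0.67 ± 0.14) were also called lower in the mean. Spag5 (-0.38 ± 0.11, adjusted p = 0.0612) and Ckap2 (-0.03 ± 0.16, adjusted p = 0.966) were not called.

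All 7 cytokinesis genes were lower in the mean. Prc1 encodes the protein that bundles midzone microtubules. In LSK cells, Prc1 read 4.23 and 5.05 in irradiated and 7.42 and 7.11 in unirradiated Parp-2-/- pools, and 4.78 and 5.88 in irradiated and 7.32 and 6.71 in unirradiated WT pools. In MP cells, Prc1 read 6.55 and 6.71 in irradiated and 7.87 and 7.80 in unirradiated Parp-2-/- pools, and 6.43 and 6.84 in irradiated and 7.96 and 7.73 in unirradiated WT pools. The pools did not overlap in any pair. Irradiated Parp-2-/- LSK pool 1 and irradiated WT LSK pool 1 lay under their array medians, so the LSK falls may be understated. Prc1 fell by 2.62 ± 0.35 in Parp-2-/- LSK cells (adjusted p = 0.00247), the largest measured single change among the 49 genes, and the WT LSK change of -1.68 ± 0.35 was also called. In 8 of 16 fits without 1 array the WT LSK call stood. Kif23 encodes the motor subunit of centralspindlin, which builds the midzone with Racgap1. In LSK cells, Kif23 read 6.39 and 6.89 in irradiated and 8.64 and 8.95 in unirradiated Parp-2-/- pools, and 7.61 and 7.52 in irradiated and 8.22 and 8.28 in unirradiated WT pools. In MP cells, Kif23 read 7.18 and 7.47 in irradiated and 8.54 and 8.38 in unirradiated Parp-2-/- pools, and 7.45 and 7.34 in irradiated and 8.60 and 8.38 in unirradiated WT pools. Irradiated and unirradiated pools were separate in all 4 pairs, with called changes of -2.15 ± 0.19 in Parp-2-/- LSK, -1.13 ± 0.19 in Parp-2-/- MP and -1.09 ± 0.19 in WT MP cells, while -0.68 ± 0.19 in WT LSK cells was not called. The Parp-2-/- MP call was lost without irradiated Parp-2-/- MP pool 1, irradiated Parp-2-/- MP pool 2, unirradiated Parp-2-/- MP pool 1 or unirradiated Parp-2-/- MP pool 2. Without irradiated WT MP pool 1, irradiated WT MP pool 2, unirradiated WT MP pool 1 or unirradiated WT MP pool 2, the WT MP call was lost.

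Racgap1 encodes the other centralspindlin subunit. In LSK cells, Racgap1 read 6.12 and 5.57 in irradiated and 8.14 and 6.90 in unirradiated Parp-2-/- pools, and 6.58 and 6.32 in irradiated and 6.59 and 5.82 in unirradiated WT pools. In MP cells, Racgap1 read 6.28 and 6.54 in irradiated and 7.05 and 7.30 in unirradiated Parp-2-/- pools, and 6.65 and 6.09 in irradiated and 7.01 and 7.33 in unirradiated WT pools. Unirradiated Parp-2-/- LSK pool 1 stood more than a log2 unit above pool 2, and the WT LSK pools overlapped. The Parp-2-/- LSK change of -1.67 ± 0.37 was called (adjusted p = 0.0483), and the change in WT LSK cells was 0.25 ± 0.37. In 3 of 16 fits without 1 array the Parp-2-/- LSK call stood. The mean call was kept in 5 of the 16 fits that left out 1 array. Anln encodes anillin, which organises the contractile ring. In LSK cells, Anln read 5.48 and 5.72 in irradiated and 6.43 and 7.10 in unirradiated Parp-2-/- pools, and 5.88 and 6.01 in irradiated and 6.97 and 6.92 in unirradiated WT pools. In MP cells, Anln read 6.89 and 7.09 in irradiated and 7.79 and 8.09 in unirradiated Parp-2-/- pools, and 6.97 and 6.64 in irradiated and 7.81 and 7.64 in unirradiated WT pools. The 4 changes were alike in size, from -1.16 in Parp-2-/- LSK to -0.92 in WT MP cells, with no overlap of pools.

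Kif20b encodes a kinesin of the late midzone. In LSK cells, Kif20b read 7.73 and 7.40 in irradiated and 8.21 and 8.21 in unirradiated Parp-2-/- pools, and 6.88 and 7.22 in irradiated and 7.98 and 8.18 in unirradiated WT pools. In MP cells, Kif20b read 8.07 and 7.89 in irradiated and 8.51 and 8.83 in unirradiated Parp-2-/- pools, and 7.84 and 8.04 in irradiated and 8.66 and 8.45 in unirradiated WT pools. Irradiated pools were lower in all 4 pairs, and the WT LSK change of -1.03 ± 0.18 was called (adjusted p = 0.0154). Without irradiated WT LSK pool 1 or unirradiated WT LSK pool 2, the WT LSK call was lost. Ect2, which encodes the activator of RhoA at the division plane, changed by -0.88 ± 0.17 in the mean, and the midzone kinesin gene Kif20a by -0.51 ± 0.09.

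The genes of chromosome structure and the chromosome surface were mixed as well, with 2 of 5 lower. Mki67 encodes Ki-67, which coats mitotic chromosomes and is the usual stain for cycling cells. In LSK cells, Mki67 read 8.22 and 8.79 in irradiated and 9.28 and 9.22 in unirradiated Parp-2-/- pools, and 8.74 and 9.25 in irradiated and 8.98 and 9.14 in unirradiated WT pools. In MP cells, Mki67 read 9.07 and 9.19 in irradiated and 9.36 and 9.64 in unirradiated Parp-2-/- pools, and 8.94 and 8.71 in irradiated and 9.52 and 9.47 in unirradiated WT pools. The WT LSK pools overlapped, the other 3 pairs did not, and the mean change was -0.46 ± 0.11 (adjusted p = 0.0228). Leaving out irradiated Parp-2-/- MP pool 1, unirradiated Parp-2-/- MP pool 2, irradiated WT MP pool 2 or unirradiated WT MP pool 1 lost the mean call. Top2a encodes the topoisomerase that untangles sister chromatids. In LSK cells, Top2a read 9.30 and 9.78 in irradiated and 9.92 and 10.05 in unirradiated Parp-2-/- pools, and 9.54 and 9.85 in irradiated and 9.53 and 9.62 in unirradiated WT pools. In MP cells, Top2a read 10.04 and 9.88 in irradiated and 9.93 and 10.15 in unirradiated Parp-2-/- pools, and 9.87 and 9.91 in irradiated and 10.23 and 9.68 in unirradiated WT pools. Pools overlapped in 3 of the 4 pairs, and the mean change of -0.12 ± 0.10 was not called (adjusted p = 0.664, 95% interval -0.35 to 0.11).

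Cdca2 encodes Repo-Man, which recruits a phosphatase to anaphase chromosomes. In LSK cells, Cdca2 read 6.26 and 6.42 in irradiated and 6.68 and 6.81 in unirradiated Parp-2-/- pools, and 5.88 and 6.00 in irradiated and 7.23 and 6.25 in unirradiated WT pools. In MP cells, Cdca2 read 6.37 and 6.40 in irradiated and 6.89 and 6.88 in unirradiated Parp-2-/- pools, and 6.48 and 6.18 in irradiated and 6.88 and 6.79 in unirradiated WT pools. Irradiated pools were lower in each pair, with a mean change of -0.56 ± 0.12 (adjusted p = 0.018). The condensin I genes Ncapg and Ncaph averaged 0.01 ± 0.08 and 0.01 ± 0.07, with 95% intervals of -0.17 to 0.19 and -0.15 to 0.17, and were not called. In this role the count was 0 of 5 without irradiated WT MP pool 2, and 1 of 5 without irradiated Parp-2-/- MP pool 1, unirradiated Parp-2-/- MP pool 2 or unirradiated WT MP pool 1.

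**Figure D3:**
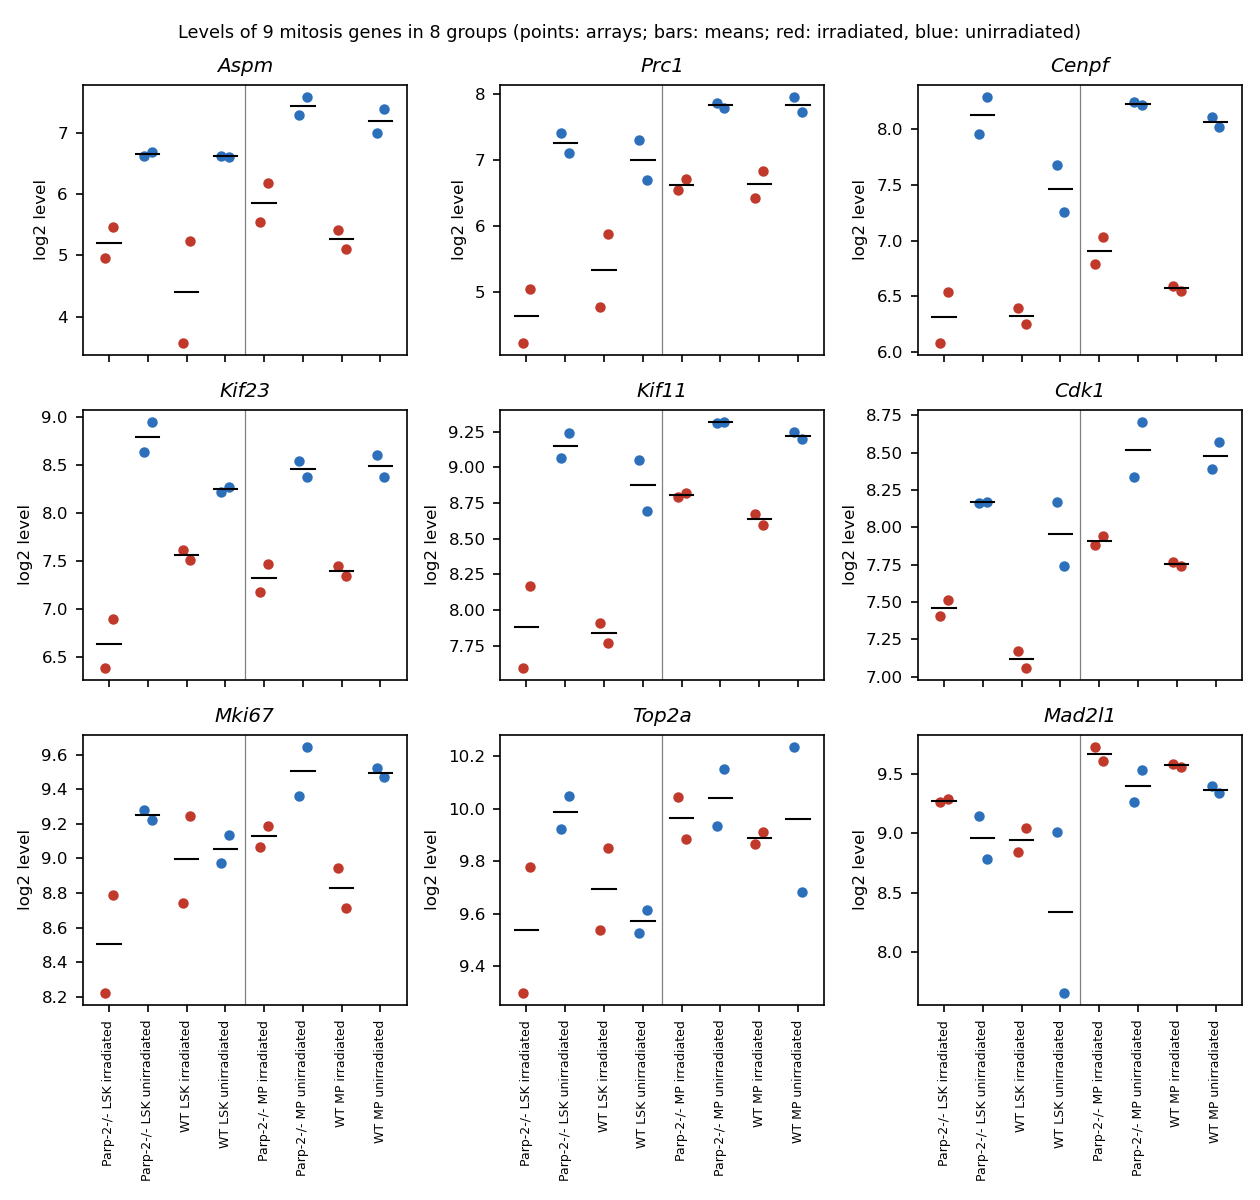
Log2 level (vertical axis) of 9 of the genes on each array, by group (horizontal axis, LSK left of the grey line). Points are arrays and bars group means, red for irradiated and blue for unirradiated. Aspm, Prc1, Cenpf, Kif23, Kif11 and Cdk1 have every irradiated point below the unirradiated points of the same cells, while the points of Top2a overlap in 3 of the 4 pairs and those of Mad2l1 lie higher after irradiation in 3 of them.

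Beyond the module, 131 other genes of the mitosis pathway were measured, of which 20 were lower and 9 higher in the mean of the 4 responses. Their median change was -0.08. Over all tested rows 2.49% were called lower and 3.31% higher, shares that also apply to the parts of this list given below. Plk1 encodes the Polo-like kinase of mitotic entry. In LSK cells, Plk1 read 4.67 and 4.81 in irradiated and 6.67 and 6.79 in unirradiated Parp-2-/- pools, and 4.42 and 4.95 in irradiated and 6.72 and 6.88 in unirradiated WT pools. In MP cells, Plk1 read 5.83 and 5.94 in irradiated and 7.49 and 7.43 in unirradiated Parp-2-/- pools, and 5.83 and 5.18 in irradiated and 6.97 and 7.50 in unirradiated WT pools. No pools overlapped. Both irradiated Parp-2-/- LSK pools and irradiated WT LSK pool 1 lay under their array medians, so the LSK falls may be understated. Plk1 changed by -1.85 ± 0.12 (adjusted p = 1.25e-06) and was called in each of the 4 responses. Its calls in MP cells were lost in Parp-2-/- without any 1 of the 4 Parp-2-/- MP pools, and in WT without irradiated or unirradiated WT MP pool 2. Among 23 other drivers of mitotic entry and exit 4 were lower and 1 higher, including Cks2 (-0.95 ± 0.09), which encodes a Cdk1-binding protein, and Ube2c (-0.91 ± 0.13), which encodes the ubiquitin-conjugating enzyme of the anaphase-promoting complex. Pttg1, the securin gene, was the higher one, at 0.34 ± 0.09, a call kept in 4 of the 16 fits that left out 1 array.

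Of 34 other checkpoint and kinetochore genes 7 were lower and 1 higher, with Sgol2a (-0.97 ± 0.14), a protector of centromeric cohesion, the largest fall and the Ndc80 complex gene Spc25 (0.80 ± 0.13) the one higher. Of 30 other spindle, motor and centrosome genes 8 were lower and 2 higher, with Depdc1a (-1.11 ± 0.16), Kif14 (-1.07 ± 0.17) and Kif18a (-1.04 ± 0.16) lower and Psrc1 (1.90 ± 0.09) and Kif18b (0.70 ± 0.16) higher. The Kif18b call was lost without irradiated Parp-2-/- MP pool 2, irradiated WT MP pool 2 or unirradiated WT MP pool 1. None of 21 other chromosome structure genes was called by limma in the mean of the 4, and 5 had an unadjusted p under 0.05, against 17.2% of tested rows. At least 1 of them was called in 7 of the 16 fits that left out 1 array. Without irradiated Parp-2-/- LSK pool 2 the drivers called lower numbered 8, and the checkpoint and kinetochore genes numbered 4 without irradiated Parp-2-/- MP pool 1, irradiated WT MP pool 2 or unirradiated WT MP pool 1.

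The regulators of the programme moved in both directions, with 1 of 14 lower and 2 higher. Rbl2 encodes p130, the pocket protein of the DREAM complex. In LSK cells, Rbl2 read 8.19 and 8.23 in irradiated and 5.96 and 6.89 in unirradiated Parp-2-/- pools, and 7.90 and 8.34 in irradiated and 6.66 and 6.62 in unirradiated WT pools. In MP cells, Rbl2 read 7.97 and 7.85 in irradiated and 6.87 and 6.72 in unirradiated Parp-2-/- pools, and 7.93 and 8.02 in irradiated and 6.97 and 6.49 in unirradiated WT pools. Irradiated pools were the higher ones in every pair, with a mean change of 1.41 ± 0.13 (adjusted p = 3.12e-05). Nfyb, a subunit of NF-Y, was also higher (1.14 ± 0.16), and the DREAM factor gene E2f4 was lower (-0.48 ± 0.12), a call kept in 6 of the 16 fits that left out 1 array. Without 1 array the count of lower regulators lay between 0 and 3. Foxm1, the activator of G2 genes, averaged -0.64 ± 0.19 and was not called (adjusted p = 0.074).

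Of 9 genes that act as brakes on entry into mitosis, 3 were higher and 0 lower. Gtse1, a p53-regulated microtubule-binding protein gene, changed by 2.50 ± 0.13, the cyclin G1 gene Ccng1 by 1.91 ± 0.12 and the checkpoint kinase gene Chek2 by 0.92 ± 0.13. The cyclin G2 gene Ccng2 averaged -0.59 ± 0.17 and was not called (adjusted p = 0.0589), but 1 of the 9 was called lower without unirradiated Parp-2-/- MP pool 2, unirradiated WT MP pool 2, irradiated Parp-2-/- LSK pool 2 or unirradiated WT LSK pool 1. Cdkn1a, which encodes p21, lies on a row that carries more than 1 symbol and is not given a value. Of 44 measured genes for copying DNA in S phase 2 fell, Dbf4 (-0.93 ± 0.12) and Ccne1 (-0.60 ± 0.14), against 2.49% of tested rows. The median change of the 44 was -0.01. Ccne1 was not called without irradiated or unirradiated Parp-2-/- MP pool 2, unirradiated Parp-2-/- MP pool 1 or irradiated WT MP pool 2, and the count was 3 without irradiated or unirradiated WT LSK pool 1.

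**Figure D4:**
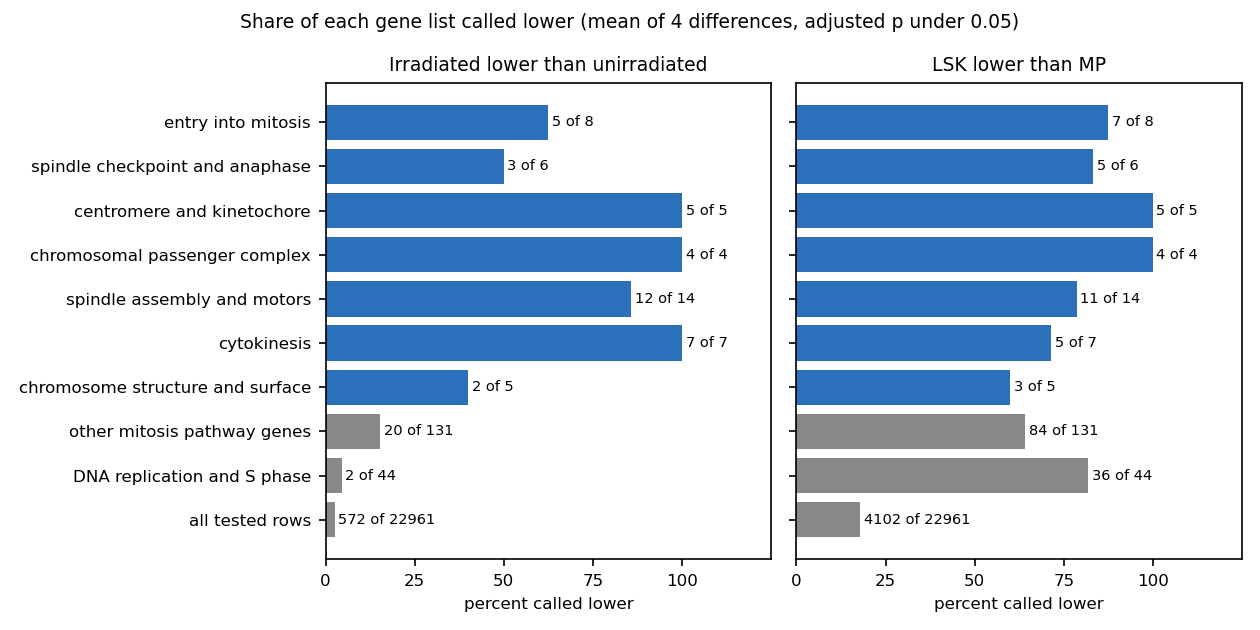
Percent of the genes of each list called lower (horizontal axis, from 0) in the mean of 4 radiation responses on the left and in the mean of 4 LSK minus MP differences on the right. Blue bars are the 7 roles within the module and grey bars the other lists, with the count beside each bar. After irradiation the roles reach 40% to 100% and the replication list 4.55%, whereas for LSK against MP the replication list reaches 81.8%.

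Markers of erythroid progenitors moved with radiation in the same MP arrays. All 10 measured genes of that list were below 0 in both MP responses, against 53.1% of tested rows in Parp-2-/- and 58.3% in WT cells. Of them 1 was called in Parp-2-/- (Hemgn) and 2 in WT cells (Hemgn and Tfrc), against 0.0827% and 0.1% of tested rows called lower. The log2 of their summed level was 11.30 to 12.20 in irradiated and 11.89 to 12.72 in unirradiated MP arrays, against 9.86 to 10.27 in irradiated and 9.68 to 10.09 in unirradiated LSK arrays. Of 12 stem cell markers 3 were lower in the mean of the 4 responses (2.49% of tested rows). Their summed levels were 11.00 to 11.27 in irradiated and 11.45 to 11.52 in unirradiated LSK arrays. Among B cell markers Vpreb1 reached 9.32 in irradiated Parp-2-/- LSK pool 2, against 5.19 to 7.78 on the other 7 LSK arrays. Its radiation change in Parp-2-/- LSK cells, 2.58 ± 0.73, was not called by limma (adjusted p = 0.125). The other B cell markers did not follow it. Cd79a, Cd79b and Pax5 changed by -0.513 to -0.087 there, and Ebf1, Igll1 and Ms4a1 by 0.085 to 0.214, none of them called. The part of these marker lists in the radiation response of the mitosis genes was not tested.

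LSK cells held less of the module's RNA than MP cells. In the mean of the 4 differences, 40 of the 49 genes were lower in LSK cells, 0 were higher and 9 were not called, with a median of -0.56. This stands against 17.9% of tested rows called lower, 21.4% called higher and a median over all rows of 0.12. A filter on dim rows kept 13272 rows, among them all 49 genes. Of those rows 4003 were called lower and 1937 higher, with a median of -0.11, so brighter rows in general leaned lower in LSK cells. With that filter 39 of the 49 genes were called lower. Replication genes differed likewise, with 36 of 44 lower and a median of -0.48, and 84 of the 131 other pathway genes were lower and 4 higher. After a further quantile normalisation of the arrays 25 of the 49 were called lower, with a median of -0.39. Over all rows 2478 were called lower and 1951 higher after that step, against 4102 lower and 4920 higher without it, and the median of all rows was 0.04. The standard deviation over rows was 1.89 to 2.03 on LSK arrays and 2.05 to 2.13 on MP arrays.

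By role, LSK cells were lower for 7 of 8 entry genes, 5 of 6 checkpoint genes, 5 of 5 kinetochore genes, 4 of 4 passenger complex genes, 11 of 14 spindle genes, 5 of 7 cytokinesis genes and 3 of 5 chromosome structure genes. After the further quantile normalisation these counts were 4 of 8, 3 of 6, 2 of 5, 2 of 4, 9 of 14, 4 of 7 and 1 of 5 in the same order. Kpna2 differed by -1.26 ± 0.14 (adjusted p = 8.2e-05) and Prc1 by -1.17 ± 0.17. The further rows of Kpna2 gave -0.8 and -1.32, so its size depends on the row. Cdc25c differed by -1.21 ± 0.12, which may be understated since it lay under the array median in irradiated LSK cells. Anln differed by -1.05 ± 0.11, Cenpe by -0.998 ± 0.14 and Ttk by -0.997 ± 0.12.

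Several genes not called for radiation were called lower in LSK than in MP cells. The condensin gene Ncapg averaged 7.54 in irradiated Parp-2-/- LSK cells, against 8.64 in irradiated Parp-2-/- MP cells. It averaged 7.49 in unirradiated WT LSK cells, against 8.33 in unirradiated WT MP cells. Its LSK minus MP difference was -0.83 ± 0.08 (adjusted p = 3.82e-05). Ccna2 differed by -0.82 ± 0.10, Bub1 by -0.73 ± 0.11 and Mad2l1 by -0.62 ± 0.16, of which the Mad2l1 call was lost after the further quantile normalisation. In contrast Kif23, with one of the largest radiation falls, differed by -0.11 ± 0.10 between the cell types (adjusted p = 0.362, 95% interval -0.31 to 0.10). Cdc25b was the one gene above 0, at 0.05 ± 0.08 (adjusted p = 0.61).

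Within single conditions fewer differences were called. In irradiated cells 18 genes were lower in Parp-2-/- LSK than MP cells (3.19% of tested rows), led by Prc1 at -1.99 ± 0.35 and Ttk at -1.84 ± 0.24. In irradiated WT cells 5 were lower (1.87%), namely Kpna2, Cdc25c, Spag5, Kif20b and Kif11. In unirradiated cells 3 were lower in Parp-2-/- (2.52%), namely Anln, Cdca8 and Ncapg, and 5 in WT (3.93%), namely Hmmr, Bub1, Ncapg, Cdca8 and Ccna2. Medians in this order were -0.67, -0.63, -0.44 and -0.53. Both LSK pools lay below both MP pools in 40 (21.7% of tested rows), 39 (24.5%), 41 (21.8%) and 41 genes (22.3%) in the same order. Without irradiated Parp-2-/- MP pool 2 the count of 18 became 3, and the count of 5 in unirradiated WT cells became 0 without unirradiated WT MP pool 1 or unirradiated WT LSK pool 2. The count of 5 in irradiated WT cells became 0 without either irradiated WT MP pool, and the count of 3 became 0 without unirradiated Parp-2-/- MP pool 2.

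**Figure D5:**
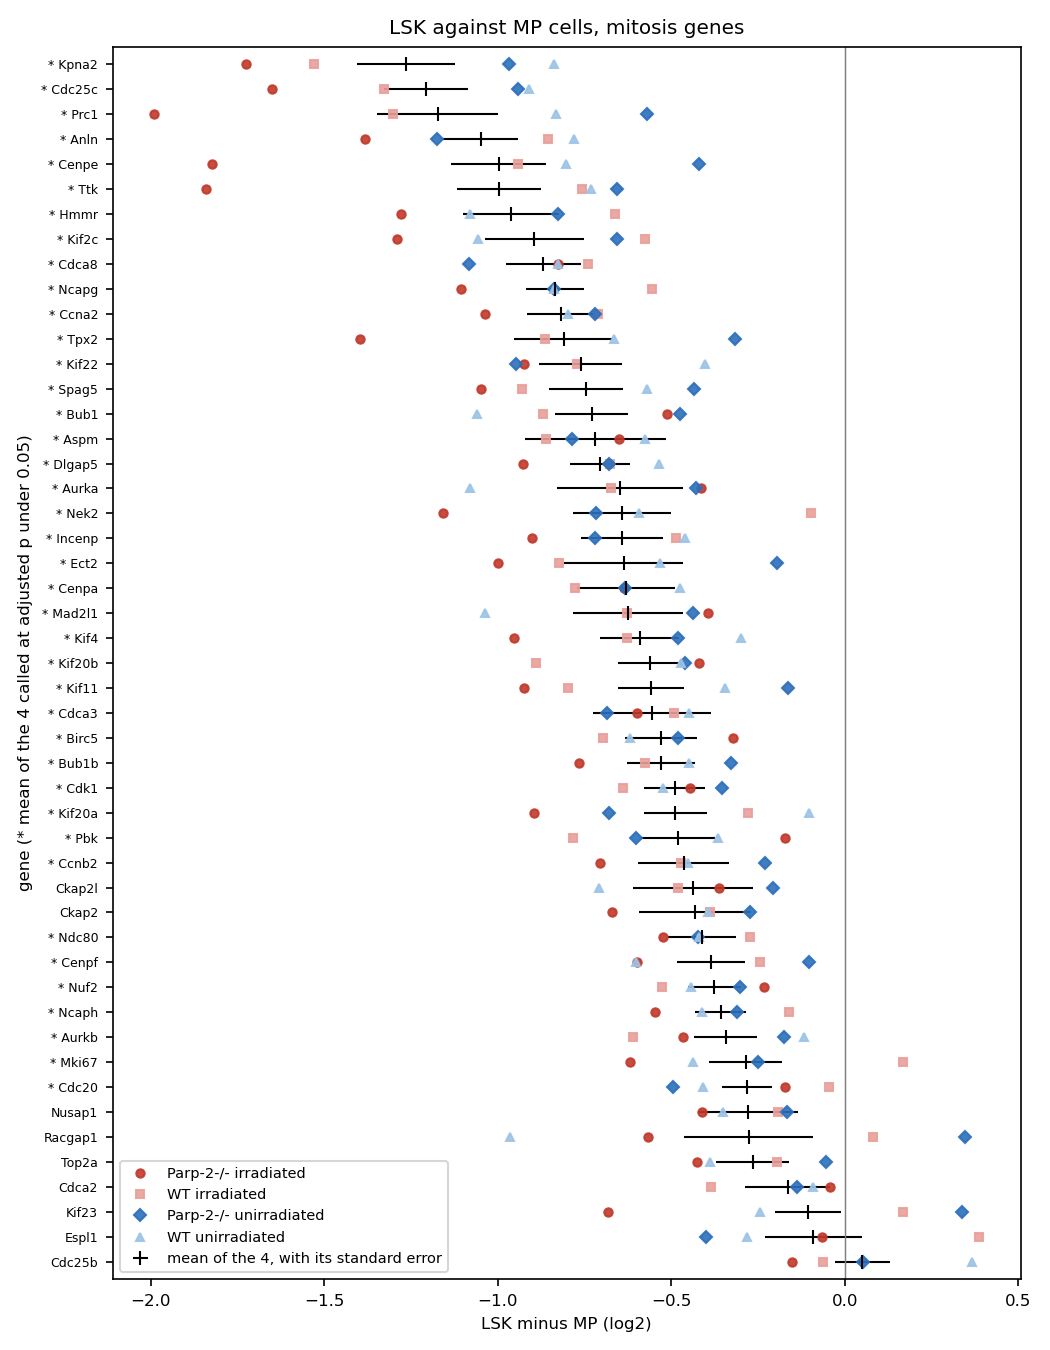
LSK minus MP level (log2, horizontal axis) of each of the 49 genes (vertical axis), with 1 symbol for each combination of genotype and irradiation state and a black bar for the mean of the 4 with its standard error. Nearly all symbols lie left of 0, with fitted means from -1.26 for Kpna2 to 0.05 for Cdc25b.

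Genotype made no called difference to any of the 49 genes. limma called 0.0174% of tested rows in either direction in irradiated LSK, 0% in unirradiated LSK, 0.00871% in irradiated MP and 0.00436% in unirradiated MP cells, and 0.00871% in the mean of the 4. In the mean of the 4 comparisons, 38 of the 49 genes were above 0 in Parp-2-/- cells (46% of tested rows), with a median of 0.10 against -0.01 over all rows, and 6 had an unadjusted p under 0.05 (5.34% of tested rows). Bub1 had the smallest p, with 0.33 ± 0.11 (adjusted p = 0.759, 95% interval 0.10 to 0.56). Aspm differed by 0.42 ± 0.20, Kpna2 by 0.34 ± 0.14 and Cenpf by 0.29 ± 0.10. Replication genes had a median of 0.13 in the same comparison, with 0 of 44 called.

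In unirradiated LSK cells 40 of the 49 genes were above 0 in Parp-2-/- against WT (46.7% of tested rows), with a median of 0.20 against -0.02 over all rows, and 6 had an unadjusted p under 0.05 (9.31% of tested rows). Racgap1 differed by 1.31 ± 0.37 (adjusted p = 0.276) and Bub1 by 0.84 ± 0.21 (adjusted p = 0.22). In irradiated LSK cells the median was -0.03, with 5 genes lower (5.2% of tested rows) and 2 higher (4.36%) at an unadjusted p under 0.05. Kif23 differed there by -0.92 ± 0.19 (adjusted p = 0.17) and Ttk by -0.88 ± 0.24 (adjusted p = 0.264). In MP cells the medians were 0.14 in irradiated and 0.10 in unirradiated cells, with 2 genes (1.79% of tested rows) and 1 gene (1.08%) at an unadjusted p under 0.05. With 1 array left out Kif23 was called in irradiated LSK cells (-1.18 without irradiated Parp-2-/- LSK pool 2), as was Aspm (1.64 without irradiated WT LSK pool 2), and Mad2l1 in unirradiated LSK cells (1.31 without unirradiated WT LSK pool 1).

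Whether the radiation response itself differed between genotypes was tested as an interaction, the Parp-2-/- response minus the WT response. None of the 49 genes was called in LSK cells by limma (0.00871% of tested rows), where 9 had an unadjusted p under 0.05 (9.52% of tested rows). The change was the lower one in Parp-2-/- cells in 35 of 49 (48.9% of tested rows), with a median of -0.29 against 0.01 over all rows. Kif23 had the smallest p, at -1.47 ± 0.27 (adjusted p = 0.121), and without irradiated Parp-2-/- LSK pool 2 it was called, at -1.73 (adjusted p = 0.0265). Racgap1 differed by -1.92 ± 0.53 (adjusted p = 0.276) and Ttk by -1.22 ± 0.34 (adjusted p = 0.288). In MP cells 0 of 49 were called (0% of tested rows), 1 had an unadjusted p under 0.05 (0.867%), and the median was 0.01.

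The LSK response minus the MP response was tested in the same way. In Parp-2-/- cells 0 of 49 were called by limma (0% of tested rows), 6 had an unadjusted p under 0.05 (5.36%), and the median was -0.25. Prc1 differed by -1.42 ± 0.49 (adjusted p = 0.779) and Cenpe by -1.40 ± 0.39 (adjusted p = 0.638). In WT cells 0 of 49 were called (0% of tested rows), 0 had an unadjusted p under 0.05 (5.54%), and the median was -0.04. The median standard error of an interaction was 0.292 over all tested rows.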

How the data were processed

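Messenger RNA of 16 bone marrow cell pools was measured on Affymetrix arrays. The authors deposited 1 log2 intensity per transcript cluster and array; RMA, limma, affy 2.10 and R 2.15 are named in the submitters' processing notes, and the log base was taken from the values, whose array medians are 4.74 to 4.92. Which arrays were normalised together is not given in the sources used here. No scanner files were analysed here, so background and saturation could not be checked; a level was called dim when it lay under its array's median, and precision is limited by 2 arrays in each group.

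The 34760 values of each array were joined to the platform annotation. The 22961 with at least 1 gene symbol were fitted with 8 group means in limma 3.58.1 (R 4.3.3; 8 residual and 4.35 prior degrees of freedom), and p-values were adjusted by Benjamini-Hochberg over these within each of 21 comparisons. Tables and figures used Python 3.11.15, pandas 2.3.3 and matplotlib 3.10.9. Tested on simulated data for the Parp-2-/- LSK response (22961 values), the fit recovered 60% of falls of 1 and 87% of falls of 2 on the log2 scale, with 10 false calls. The simulated arrays all had the same spread, averaged over the 8 groups. Real LSK pools differed more than MP pools, a setting that the simulation did not cover.

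The members, the lists and the tests were chosen with earlier results of these data known. Per-array values are printed for members called in at least 1 radiation response, for the 3 with the largest mean change in each role, and for Cdk1, Mki67 and Top2a. Genes outside the module were limited to 4 called genes of a list by size of change, plus Plk1, Foxm1, Cdkn1a and Parp2. Pttg1, Kif18b, Ccng2 and Vpreb1 were named after their values were seen, as were the markers set beside Nkg7 and Vpreb1. Alternatives were the pool number as a block, a further quantile normalisation, a variance trend, array weights, a filter on dim rows, the 8 arrays of 1 cell type or genotype alone, the row with the highest variance, and leaving out each array.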

Additional observations from a re-analysis of the deposited data

How the results depend on the processing

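Radiation lowered 29 to 39 of the 49 genes in the mean of 4 responses with any 1 array left out and 37 to 39 under the other settings, and the mean for LSK against MP gave 38 to 42, but 25 after a further quantile normalisation. In single radiation responses, array weights gave 10 genes in Parp-2-/- LSK, 2 in WT LSK, 15 in Parp-2-/- MP and 18 in WT MP cells, and the 8 arrays of a cell type alone gave 2, 0, 15 and 15. With 1 array left out the same 4 counts lay at 10 to 20, 3 to 13, 0 to 5 and 0 to 5. Parp-2-/- MP had 2 under quantile normalisation and under the variance trend, and WT MP had 4 with the filter on dim rows. For LSK against MP, leaving out 1 array gave 3 to 21 in irradiated Parp-2-/-, 0 to 9 in irradiated WT, 0 to 5 in unirradiated Parp-2-/- and 0 to 9 in unirradiated WT cells. Unirradiated Parp-2-/- cells had 9 with array weights, 6 with the dim filter and 1 with 8 arrays alone. Irradiated WT cells had 1 after quantile normalisation and 2 with 8 arrays alone. Unirradiated WT cells had 2 after quantile normalisation and with the variance trend, 8 with the dim filter and 3 with 8 arrays alone. Genotype in irradiated and in unirradiated LSK cells, and its interaction with irradiation in LSK cells, gave 0 to 1 with 1 array left out. The causes were not tested. No called change of the 49 genes turned its direction in any of these settings; of the other pathway genes Anapc5 did for LSK minus MP, at 0.48 with its row of highest variance. Parp2 lay between -1.52 and -1.34 with 1 array left out. The 8 arrays alone give no mean of 4.

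Same-numbered pools showed no general correlation: over 28 pairs of groups it ran from -0.173 to 0.227 (median 0.004), with 2 pairs over 0.1. With 2 pools in each group this cannot exclude that some of them shared mice, which the labels do not give. With the pool number as a replicate block the radiation count stayed 38 for the mean and was 15 in Parp-2-/- LSK, 11 in WT LSK, 2 in Parp-2-/- MP and 4 in WT MP cells. For LSK against MP the block gave 3 in irradiated WT cells.

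With 2 pools in each group and LSK pools that differed more than MP pools, a call in 1 comparison needs a large change, and its absence does not show equal levels. Levels of Cdc25c in irradiated LSK cells, and of Kif2c and Nek2 in irradiated Parp-2-/- LSK cells, were dim, so those falls are lower bounds.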
